A study of Mus musculus with 30 samples.

Results

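CXC chemokines are small secreted proteins named for the spacing of their first cysteines, and they direct the movement of leukocytes through G protein-coupled receptors of the Cxcr family. Here 7 of them were followed across the stress responses of mouse embryonic fibroblasts (MEFs): Cxcl1, Cxcl2, Cxcl3 (named Gm1960 in the array files), Cxcl5, Cxcl9, Cxcl10 and Cxcl12. The members were chosen by gene name, with earlier results of these data known, and they made up 7 of the 21689 named genes on the arrays and 8 of the 33453 named probes, since Cxcl12 had 2 probes and the others 1 each.

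Total RNA was hybridised to 30 two-colour Agilent arrays, 2 for each of 15 groups, with Cy5 on the RNA of the group and Cy3 on pooled RNA of 2 wild type cultures left untreated. All cells were immortalised MEFs grown in DMEM with 10% fetal calf serum, and the p38α knock out MEFs, which lack the stress-activated kinase encoded by Mapk14, were a separate cell line. Wild type MEFs made up 11 groups: anisomycin (25 ng/ml, 45 min), a protein synthesis inhibitor; TNFα (100 ng/ml, 45 min), an inflammatory cytokine; NaCl (100 mM, 45 min, 2 h or 8 h), a hyperosmotic stress; SB203580 alone, an inhibitor of p38α and p38β; and SB203580 before each of these 5 stresses. SB203580 was given at 10 μM from 30 min before the stress by the protocol, whereas the sample titles state 10 mM and 2 h. The p38α knock out MEFs made up 4 groups, which were untreated or received anisomycin (45 min), TNFα (45 min) or NaCl (2 h) at these doses.

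Values below are log2 ratios of a group to the pool, so that 0 is the pool's level and 1 is a doubling, and a gene was called at an adjusted p under 0.05. The pool is the only untreated wild type sample and appears on every array, so a test against it holds the spread between the 2 treated cultures and not that between untreated ones, and groups set beside each other share it. The study took the 2 cultures of a group from independent experiments. Mapk14 lay between -0.94 and -2.24 on the p38α knock out arrays with a usable spot. All 10 fibroblast markers (such as Col1a1, Col3a1 and Vim) gave a pool signal well above background on 30 of 30 arrays, and so did 9 of 9 macrophage and leukocyte, 5 of 5 endothelial and the 2 epithelial markers on the array, so that detection on these probes did not set the cell types apart. Between 81.1% and 96.8% of the probes were well above background in Cy5 on an array, and between 6.78% and 44.8% of the spots carried an outlier mark.

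Cxcl1, Cxcl2, Cxcl3 and Cxcl5 share a Glu-Leu-Arg motif before the first cysteines and attract neutrophils through Cxcr2. Cxcl9 and Cxcl10 lack this motif, bind Cxcr3 on activated T cells and are known as interferon-induced chemokines, while Cxcl12 binds Cxcr4 and is made constitutively by stromal cells such as fibroblasts. TNFα binds its receptor Tnfrsf1a and releases NF-κB from its inhibitors, and NF-κB is a known activator of the Cxcl1, Cxcl2 and Cxcl10 promoters. The kinase p38 and its target Mapkapk2 are known to stabilise short-lived cytokine and chemokine mRNAs that carry AU-rich elements, to which the decay factor Zfp36 binds.

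Promoters of the 4 TNFα-responsive members with an entry are shown because they share a sequence feature that the choice of members did not use. RefSeq (GRCm38.p6) held a promoter for 6 of the 7 members, all but Cxcl5, of 250 bases before the transcript start and 50 from it. The 250 bases before the start are printed. In the lines below, each 5′ to 3′, capitals mark matches to the NF-κB consensus and, in Cxcl10 alone, the first run of capitals marks the interferon-stimulated response element GAAANNGAAA.

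Cxcl1, chr5:90890995-90891244, plus strand: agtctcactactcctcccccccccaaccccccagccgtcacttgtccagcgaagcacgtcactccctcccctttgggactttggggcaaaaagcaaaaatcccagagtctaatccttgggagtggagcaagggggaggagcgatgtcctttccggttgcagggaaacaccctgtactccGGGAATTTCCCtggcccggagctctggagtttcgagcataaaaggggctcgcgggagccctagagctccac

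Cxcl2, chr5:90903649-90903898, plus strand: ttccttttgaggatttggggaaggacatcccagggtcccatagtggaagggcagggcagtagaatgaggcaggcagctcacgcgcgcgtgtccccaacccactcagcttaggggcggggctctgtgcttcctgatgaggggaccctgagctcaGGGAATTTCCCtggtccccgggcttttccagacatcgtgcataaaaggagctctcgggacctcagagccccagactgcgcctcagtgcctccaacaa

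Cxcl3, chr5:90785851-90786100, plus strand: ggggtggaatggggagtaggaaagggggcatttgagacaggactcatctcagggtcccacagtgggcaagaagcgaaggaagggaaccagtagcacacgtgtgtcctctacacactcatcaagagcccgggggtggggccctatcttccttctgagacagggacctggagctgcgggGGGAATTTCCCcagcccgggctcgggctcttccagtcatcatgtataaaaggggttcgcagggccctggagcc

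Cxcl10, chr5:92348890-92349139, minus strand: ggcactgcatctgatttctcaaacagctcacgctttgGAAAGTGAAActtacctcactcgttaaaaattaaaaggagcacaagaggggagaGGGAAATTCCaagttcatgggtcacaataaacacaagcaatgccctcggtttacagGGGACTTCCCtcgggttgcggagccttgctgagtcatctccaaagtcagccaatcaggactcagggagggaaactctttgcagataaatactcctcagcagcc

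The letters of the NF-κB consensus are not all plain bases, so it is given by name. In Cxcl1, Cxcl2 and Cxcl3 the capitals are overlapping matches on both strands, which began 71, 97 and 73 bases before the start. Cxcl10 held separate NF-κB matches at 159 and 103 bases and the response element at 213 bases before the start, none of which overlap. None of the 6 promoters other than these 4 held a match to either motif, so Cxcl9 and Cxcl12 had none in this window. Both strands of all 32851 promoters of this length were searched, and the NF-κB consensus was found in 4.51% of them and GAAANNGAAA in 3.44%. Cxcl5, Cxcl3, Cxcl1, Cxcl2, Cxcl9 and Cxcl10 lie on chromosome 5 (Cxcl5 from 90759298 to 90761625, Cxcl10 from 92346638 to 92348889) and Cxcl12 on chromosome 6 (117168535 to 117181368).

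TNFα for 45 min gave the response in most members. In wild type MEFs Cxcl10, Cxcl5, Cxcl3 and Cxcl2 rose, 4 of the 5 members tested, where 5.25% of all genes tested were called higher. The member tested that was not called, Cxcl9, had no measurable level, and Cxcl12 could not be tested there, because of outlier marks. With spots marked as outliers kept, Cxcl1 rose as well, where 6.1% of all genes were called higher.

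**Figure D1:**
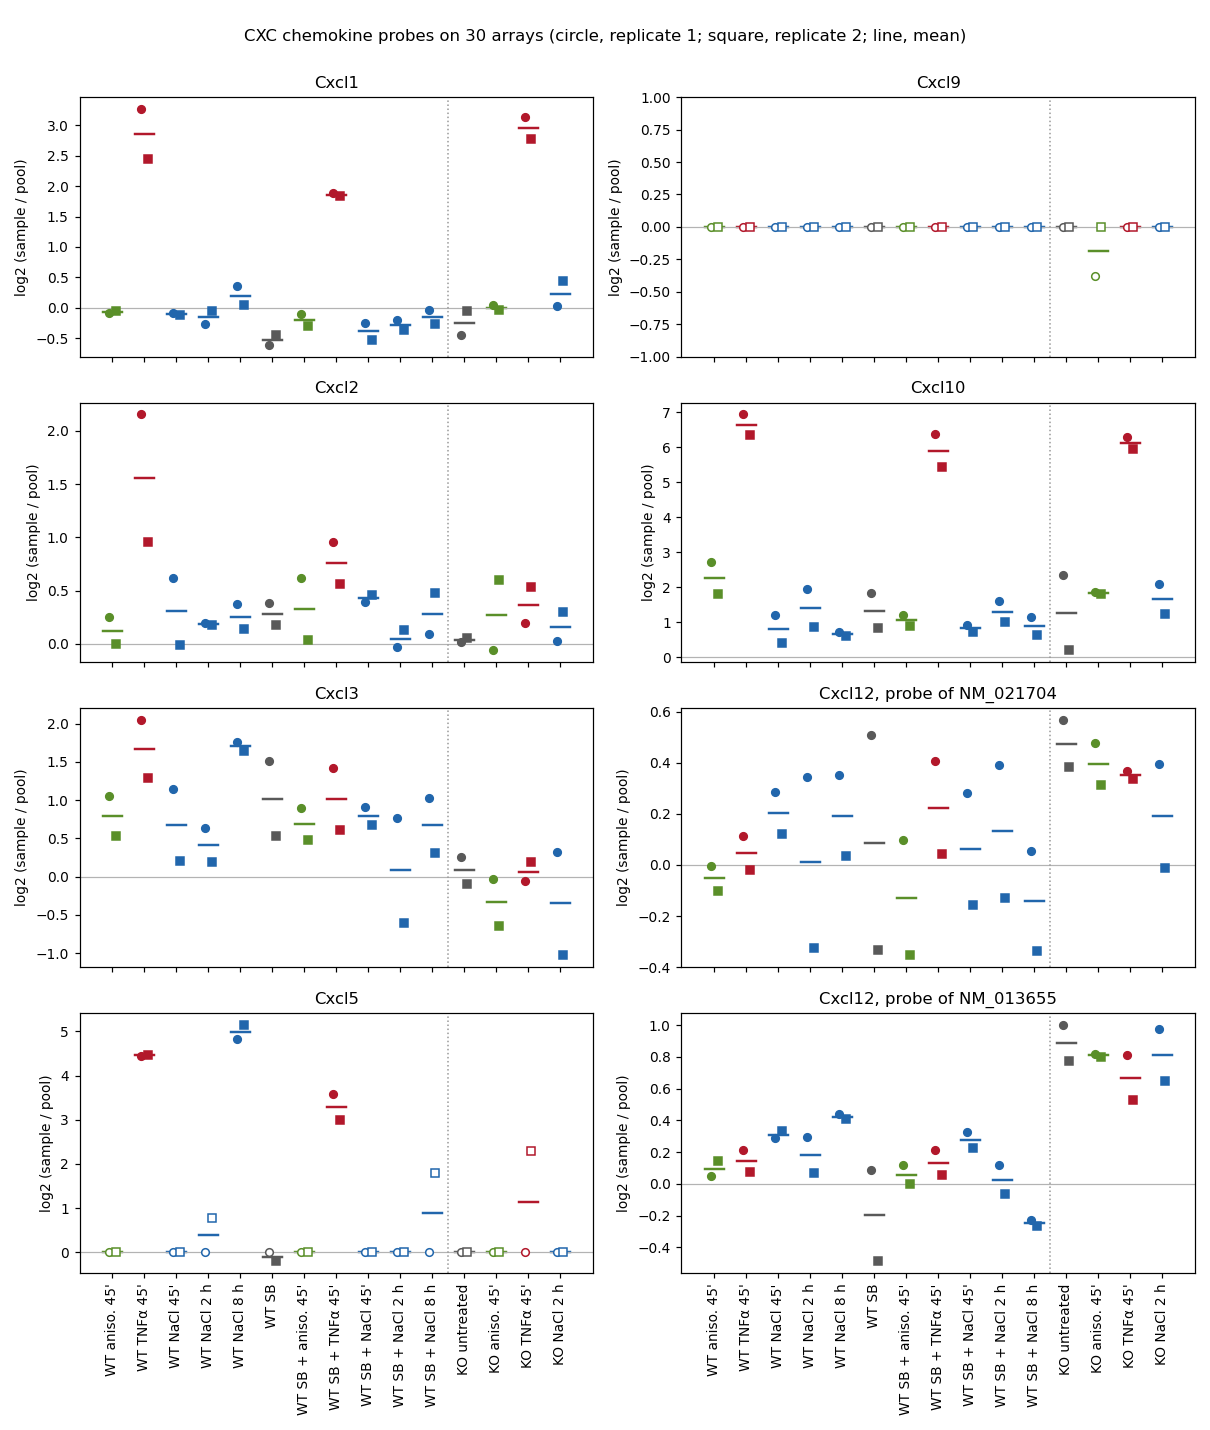
Log2 ratio to the untreated wild type pool (vertical axis, each panel with its own scale) of each member in the 15 groups. Circles are replicate 1, squares replicate 2 and lines the mean of the 2, hollow symbols are spots not well above background in either channel, and the dotted line separates the p38α knock out groups. Cxcl10 reached 5.44 to 6.94 in the groups with TNFα and at most 2.71 in the others.

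Cxcl10, the ligand of Cxcr3, lay at 6.94 and 6.34 on the 2 arrays of wild type MEFs with TNFα. The mean of 6.64 (SE 0.40, n = 2) is a 99.6-fold higher level than in the pool, with an adjusted p of 8.92e-09 (limma). With normexp, an alternative background correction with an offset, it was 5.33 (40.3-fold), and 4.63 for TNFα in p38α knock out MEFs and 4.62 after SB203580. The ratio of Cxcl10 was above 0 on 30 of 30 arrays, the lowest being 0.20 in untreated p38α knock out MEFs. As no dyes were swapped, a constant offset of this probe between the dyes cannot be told apart from its smaller rises over the pool. Ordered by their means, the groups began with TNFα in wild type MEFs (6.64), in p38α knock out MEFs (6.12) and after SB203580 (5.90), of which wild type MEFs lay just above the knock out arrays (6.34 against 6.29) and the knock out arrays fell within the range after SB203580. Anisomycin in wild type MEFs came next at 2.25, with no overlap. From there down to NaCl for 8 h, the lowest mean at 0.67, the ranges of neighbouring groups overlapped.

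Cxcl5 was hardly measurable outside a few groups. Its pool signal was well above background on 2 of 30 arrays and its Cy5 signal on 6, which were the 2 arrays each of TNFα, SB203580 with TNFα and NaCl for 8 h in wild type MEFs. With TNFα the ratio was 4.44 and 4.47 (mean 4.46, adjusted p = 6.54e-07), but the pool was not well above background on either array, and on replicate 2 the scanner software had put a set value in place of the dim pool signal. Against the lowest signal that counts as well above background, Cxcl5 was at least 2.35-fold higher with TNFα than in the pool. Such bounds compare the means of normalised log2 signals in single channels, 7.21 against 5.98 in this case. Bounds against the pool set Cy5 against Cy3 and cannot be told apart from dye bias, as no dyes were swapped, whereas bounds between groups set Cy5 against Cy5. The adjusted p of Cxcl5, here and below, belongs to the ratios in the fit and not to a bound. Groups whose 2 arrays read the same because neither signal was well above background enter the spread of that fit. For Cxcl5 that spread therefore does not measure the one between cultures.

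Cxcl3 and Cxcl2 rose less, and their 2 arrays lay further apart. Cxcl3 read 2.05 and 1.29 with TNFα, a mean of 1.67 (3.18-fold, adjusted p = 0.0053). Without replicate 1 the call was lost (1.29, adjusted p = 0.17), and normexp gave 1.01 (2.02-fold) with the call kept. Cxcl2 read 2.16 and 0.95, a mean of 1.55 (2.93-fold, adjusted p = 0.000274).

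Cxcl1 was bright in both channels on every array, but the scanner software marked its spot as an outlier (uneven pixels or a spot unlike its repeats) on 28 of 30 arrays. All Cxcl1 values given here therefore come from marked spots, under the alternative that keeps them. The shares of all genes printed beside results are with outlier spots left out unless stated otherwise, also where Cxcl1 is named. With TNFα Cxcl1 read 3.27 and 2.44, a mean of 2.86 (7.25-fold, adjusted p = 1.63e-09). In the 12 groups without TNFα its means lay between -0.53 and 0.23.

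**Figure D2:**
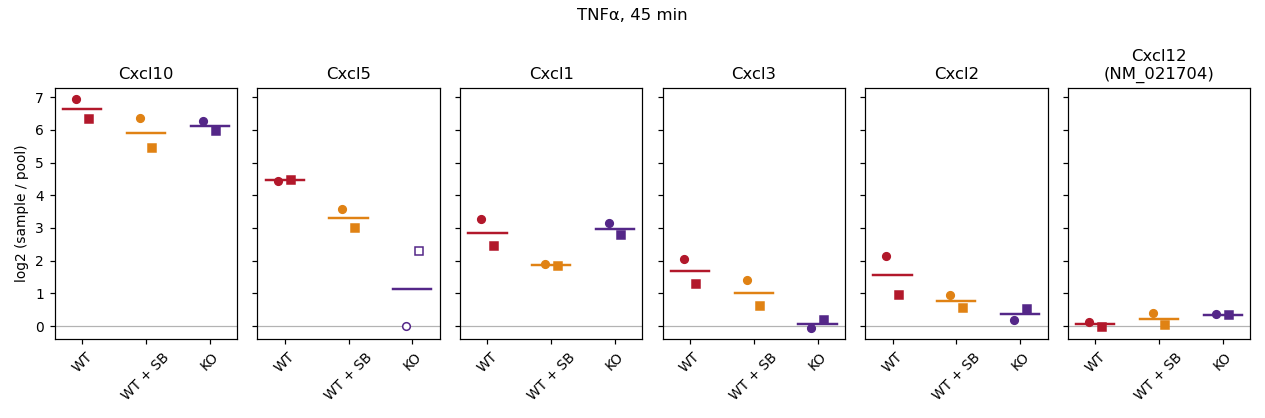
Log2 ratio to the pool of the members other than Cxcl9 with TNFα in wild type MEFs, after SB203580 and in p38α knock out MEFs. Circles are replicate 1 and squares replicate 2. Cxcl1 and Cxcl10 lay high with TNFα in wild type MEFs, after SB203580 and in p38α knock out MEFs, whereas Cxcl2 read 0.20 and 0.53 and Cxcl3 -0.06 and 0.19 in p38α knock out MEFs with TNFα.

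Anisomycin and NaCl at 45 min were set against TNFα at the same time. Among the members tested, anisomycin was followed by a rise of Cxcl10 alone, with 2.71 and 1.79 on its 2 arrays (mean 2.25, 4.76-fold, adjusted p = 0.00152), where 5.72% of all genes were called higher. Without replicate 1 the adjusted p was 0.134. NaCl at 45 min gave no call among the 5 members tested, with 4.69% of all genes called higher, and Cxcl10 read 1.21 and 0.39 there. With the replicate number as a block, Cxcl3 was called with anisomycin (0.79, adjusted p = 0.0131 against 0.144), and Cxcl10 (0.80, 0.028 against 0.204) and Cxcl3 (0.67, 0.0304 against 0.228) with NaCl at 45 min. The block takes the shift between replicate numbers out of the spread, although the level over the pool moves with that shift. In tests against the pool, here and below, the blocked adjusted p therefore does not hold this part of the spread.

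The difference between TNFα and anisomycin was called higher in 0.0705% of all genes, and Cxcl10 and Cxcl5 were among them. For Cxcl10 it was 4.39 (95% interval 3.21 to 5.56, adjusted p = 0.000509), and Cxcl5 was at least 2.03-fold higher with TNFα (adjusted p = 0.000237). Cxcl1 differed by 2.93 (2.47 to 3.38, adjusted p = 5.53e-07). For Cxcl2 the difference of 1.43 (0.78 to 2.08) had an adjusted p of 0.0904, of 0.021 with the block and of 0.00216 with normexp. Cxcl3 differed by 0.88 (-0.16 to 1.92, adjusted p of 1).

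Against NaCl at 45 min, 0.194% of all genes were called higher with TNFα. Cxcl10 differed by 5.84 (4.66 to 7.01, adjusted p = 1.44e-05), Cxcl5 was at least 1.89-fold higher (adjusted p = 0.000172) and Cxcl1 differed by 2.97 (2.51 to 3.42, adjusted p = 3.01e-07). The difference of Cxcl2 was 1.25 (0.60 to 1.90) with an adjusted p of 0.166, of 0.0433 with the replicate block and of 0.00842 with normexp. Between anisomycin and NaCl at 45 min no member was called, and Cxcl10 differed by 1.45 (0.28 to 2.63, adjusted p = 0.682). When intensities were corrected by normexp instead, the Cxcl5 differences had adjusted p of 0.0558 against anisomycin and 0.0704 against NaCl.

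With NaCl in wild type MEFs, Cxcl10 was called at 2 h, and Cxcl5 and Cxcl3 at 8 h. Cxcl10 read 1.95 and 0.87 at 2 h (mean 1.41, 2.65-fold, adjusted p = 0.0306), where 5.24% of all genes were called higher, and 0.72 and 0.61 at 8 h (adjusted p = 0.261, and 0.048 with the block). Without replicate 1 the 2 h call was lost (0.87, adjusted p = 0.631), and normexp gave 0.43 (adjusted p = 0.133). At 2 h Cxcl10 was also called after SB203580 and NaCl (1.59 and 0.999, mean 1.29, adjusted p = 0.0317, where 9.39% of all genes were called higher), a call lost without either array (adjusted p of 0.321 and 0.168) and with normexp (adjusted p = 0.309). The 2 genes called at 8 h were among 6 members tested, where 11% of all genes were called higher.

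Cxcl5 read 4.82 and 5.14 at 8 h (mean 4.98, adjusted p = 6.33e-08) and its pool signal was well above background on 1 of these 2 arrays. At 45 min it read 0.00 on both arrays, which is the ratio of 2 dim signals and no level, and at 2 h 0.00 and 0.79, again with neither channel well above background. Cxcl5 was thus at least 3.51-fold higher at 8 h than at 2 h (adjusted p = 4.25e-05) and at least 3.14-fold higher than at 45 min (adjusted p = 1.66e-05), in contrasts that called 3.34% and 3.54% of all genes higher.

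Cxcl3 read 1.76 and 1.64 at 8 h (mean 1.70, 3.25-fold, adjusted p = 0.00163), 0.64 and 0.20 at 2 h, and 1.15 and 0.20 at 45 min. With normexp its 8 h mean was 0.96 (1.94-fold), with the call kept. Both 8 h arrays lay above all 4 earlier ones. The difference between 8 h and 2 h, 1.29 (0.25 to 2.32), had an adjusted p of 0.138, and of 0.0086 with the replicate block. The difference between 8 h and 45 min, 1.03 (-0.01 to 2.07), had an adjusted p of 0.273, and of 0.0297 with the block. Cxcl2 stayed between -0.01 and 0.62 and Cxcl1 between -0.26 and 0.36 on the 6 NaCl arrays, with no call, although normexp called Cxcl1 at 8 h (0.27, adjusted p = 0.0373).

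**Figure D3:**
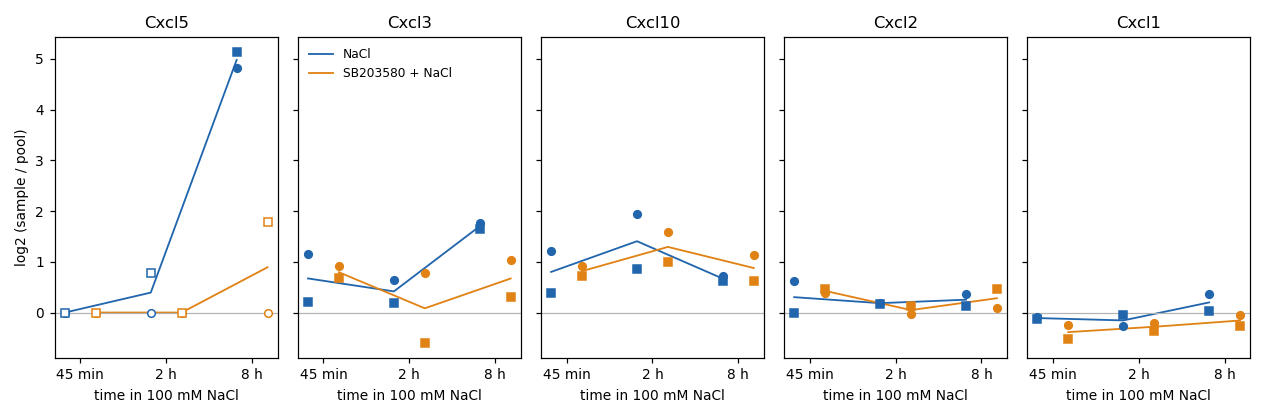
Log2 ratio to the pool of Cxcl5, Cxcl3, Cxcl10, Cxcl2 and Cxcl1 at 45 min, 2 h and 8 h of NaCl in wild type MEFs with and without SB203580. Times are equally spaced and not to scale, circles are replicate 1 and squares replicate 2. Cxcl5 read 4.82 and 5.14 at 8 h of NaCl and 0.00 and 1.79 after SB203580.

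SB203580 was used to ask which responses need p38 activity. Given alone, SB203580 was followed by higher Cxcl10 (1.82 and 0.82, mean 1.32, adjusted p = 0.0204) and Cxcl3 (1.51 and 0.53, mean 1.02, adjusted p = 0.0379), 2 of the 5 members tested, where 14.7% of all genes were called higher. Without replicate 1 both calls were lost (adjusted p of 0.48 and 0.632), and that of Cxcl10 also with normexp (0.25, adjusted p = 0.326) and with the deposited log2 table (0.825, adjusted p = 0.105). Cxcl1 fell, with -0.61 and -0.44 (mean -0.53, adjusted p = 0.0107), where 27.7% of all genes were called lower with outlier spots kept, a call lost without replicate 1 (adjusted p = 0.204).

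With SB203580 and TNFα, Cxcl10 (6.37 and 5.44, mean 5.90, adjusted p = 6.89e-08), Cxcl5 (3.59 and 2.996, at least 1.38-fold over the pool, adjusted p = 3.96e-05) and Cxcl2 (0.95 and 0.56, mean 0.76, adjusted p = 0.0372) were called higher than the pool, 3 of the 6 members tested, where 5.61% of all genes were. Without either array of the group the Cxcl2 call was lost (adjusted p of 0.468 and 0.144), and with normexp the Cxcl5 call was (adjusted p = 0.0687). Cxcl1 read 1.88 and 1.84 (mean 1.86, 3.63-fold, adjusted p = 5.72e-07). Cxcl3 read 1.41 and 0.60 (mean 1.01, adjusted p = 0.0747, and 0.00469 with the replicate block). The block also added calls of Cxcl3 and Cxcl10 with SB203580 and anisomycin, NaCl for 45 min or NaCl for 8 h, at 0.67 to 1.05 above the pool.

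Set directly against TNFα alone, 0 of 14367 genes were called lower with SB203580 (0%) by limma, 204 genes differed either way at an unadjusted p under 0.05, and normexp called 1 gene lower. No member was called. The differences were -0.998 for Cxcl1 (-1.45 to -0.54), -0.80 for Cxcl2 (-1.45 to -0.14), -0.66 for Cxcl3 (-1.70 to 0.38) and -0.73 for Cxcl10 (-1.91 to 0.44), each with an adjusted p of 1. The intervals, which are not adjusted for the number of genes, leave out 0 for Cxcl1 and Cxcl2. For Cxcl5 the ratios differed by -1.16 (adjusted p of 1), but the pool was not well above background on any of these 4 arrays, so its size is not measured, and the mean normalised log2 signal in Cy5 was 6.40 with and 7.21 without SB203580. For Cxcl1 both arrays with SB203580 lay below both without it, and the call was made with normexp (-0.995, adjusted p = 0.00598) and without TNFα replicate 2 (-1.41, adjusted p = 0.0131).

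**Figure D4:**
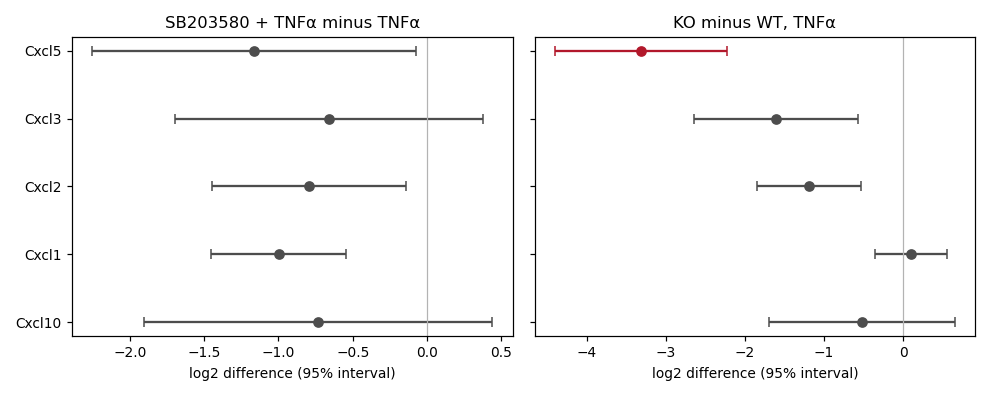
Differences of the log2 ratio with TNFα for 5 members, between SB203580 with TNFα and TNFα alone and between p38α knock out and wild type MEFs, with bars for 95% intervals that are not adjusted for the number of genes and red for an adjusted p under 0.05. Cxcl5 between genotypes, at -3.31, is called, and the interval of Cxcl10 spans 0 in both comparisons. The Cxcl5 points rest on pool signals not well above background and do not measure a size.

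At 8 h of NaCl, Cxcl5 was the member called lower with SB203580. It read 0.00 and 1.79 with the inhibitor, neither signal well above background, against 4.82 and 5.14 without. The difference of -4.09 (-5.18 to -3.00) had an adjusted p of 0.00441 in a contrast that called 0.113% of all genes lower, and as a bound Cxcl5 was at least 3.13-fold lower. The call held in each of the 4 fits that left out 1 of these arrays. Cxcl3 read 1.03 and 0.31 with SB203580 and NaCl for 8 h, a difference of -1.03 (-2.07 to 0.01, adjusted p = 0.996).

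Since the arrays with SB203580 alone were not at the level of the pool, the rise over SB203580 alone was also set against the rise over the pool. This difference of inductions was called for Cxcl5 at 8 h of NaCl, -3.99 (-5.33 to -2.66, adjusted p = 0.014), where 0.199% of all genes were called lower. It was not called without NaCl 8 h replicate 2 (adjusted p = 0.155), SB203580 replicate 1 (0.145) or SB203580 with NaCl 8 h replicate 1 (0.0886). With the replicate number as a block 6 such differences were called, which adds Cxcl10 with anisomycin (-2.52, adjusted p = 0.0079 against 0.0877 without the block) and TNFα (-2.05, 0.0178 against 0.156), and Cxcl3 with NaCl for 8 h (-2.05, 0.009 against 0.121), TNFα (-1.68, 0.0216 against 0.183) and NaCl for 2 h (-1.35, 0.0387 against 0.231). Each of these subtracts the group with SB203580 alone and its spread between 2 arrays. The unstressed level was in Cy5 with SB203580 and in Cy3 without it, so a dye offset of a probe enters these differences. For Cxcl10 SB203580 alone read 1.32 on average. Its direct differences from stress alone were -1.20 with anisomycin and -0.73 with TNFα. For Cxcl3 SB203580 alone read 1.02, and the direct differences were -1.03 (NaCl for 8 h), -0.66 (TNFα) and -0.33 (NaCl for 2 h).

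With TNFα in p38α knock out MEFs, Cxcl10 and Cxcl1 were called higher than the pool, and Cxcl2, Cxcl3 and Cxcl5 were not. The direct differences between the genotypes are given further below. Cxcl10 (6.29 and 5.95, mean 6.12, 69.5-fold over the pool, adjusted p = 2.43e-08) and Cxcl1 (3.14 and 2.77, mean 2.96, 7.76-fold, adjusted p = 6.1e-10) were high with TNFα, where 3.44% of all genes were called higher with outlier spots left out. Cxcl2 read 0.20 and 0.53 (mean 0.36, adjusted p = 0.373) and Cxcl3 -0.06 and 0.19 (mean 0.07, adjusted p = 0.957). Cxcl5 read 0.00 and 2.29, with neither channel well above background on either array (adjusted p = 0.0646, and 0.0379 with the replicate block).

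Cxcl10 was also called higher than the pool in the other 3 knock out groups, at 1.27 untreated (adjusted p = 0.0371, with 8.02% of all genes called higher), 1.82 with anisomycin (0.00576, 6.4%) and 1.65 with NaCl for 2 h (0.00759, 9.06%). Without a dye swap these rises over the pool cannot be told apart from dye bias of the probe. Each of these calls was lost without replicate 1 and with only the compared arrays in the fit, that with anisomycin also without replicate 2, and the untreated and NaCl calls also with normexp.

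Against untreated p38α knock out MEFs, which hold a spread of their own on both sides, TNFα called 0.078% of all genes higher. Cxcl10 rose by 4.85 (3.67 to 6.02, adjusted p = 0.000282) over an untreated level that read 2.35 and 0.20, and Cxcl1 rose by 3.20 (2.75 to 3.66, adjusted p = 1.68e-07) over -0.45 and -0.05. With only the compared arrays in the fit the Cxcl10 call was lost (adjusted p = 0.267). Cxcl2 differed by 0.33 (-0.32 to 0.98) and Cxcl3 by -0.02 (-1.06 to 1.02), each with an adjusted p of 1.

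Between the genotypes under TNFα, 0.358% of all genes were called lower in p38α knock out MEFs. Of the members Cxcl5 was called lower, with a difference of -3.31 (-4.40 to -2.22, adjusted p = 0.00379), or at least 1.95-fold lower. In the scan batch that held both genotypes its ratio was 0.00 in p38α knock out and 4.47 in wild type MEFs. The call was lost without TNFα replicate 2 of the wild type (adjusted p = 0.0614) or replicate 1 of the knock out (-2.17, adjusted p = 0.081), with normexp (-1.01, adjusted p = 0.153) and with only the compared arrays in the fit (adjusted p = 0.475).

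Cxcl3 differed by -1.60 (-2.64 to -0.57, adjusted p = 0.258), with an adjusted p of 0.0103 under the replicate block, 0.025 with normexp, and a within-batch difference of -1.34. Cxcl2 differed by -1.19 (-1.84 to -0.54, adjusted p = 0.143), with an adjusted p of 0.0331 under the block, 0.0198 with normexp, and a within-batch difference of -0.76. With anisomycin Cxcl3 differed by -1.13 (adjusted p = 0.354, and 0.0388 with the block). For both genes the 2 knock out arrays with TNFα lay below the 2 wild type arrays. Cxcl10 with TNFα differed by -0.52 (-1.69 to 0.66, adjusted p = 0.893) and by -0.05 within the batch, and Cxcl1 by 0.10 (-0.36 to 0.55, adjusted p = 0.911) and by 0.69 within the batch.

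The difference of the TNFα inductions, each over its own untreated level, was called for Cxcl5 (-3.31, -4.65 to -1.98, adjusted p = 0.0398), where 0.145% of all genes were called lower. The call was lost without TNFα replicate 1 or 2 of the wild type, untreated knock out replicate 1 or knock out TNFα replicate 1, with adjusted p of 0.104 to 0.212, with normexp (-0.99, adjusted p = 0.141) and with only the compared arrays in the fit (adjusted p = 0.285). With the replicate block Cxcl3 (-1.69, adjusted p = 0.027) and Cxcl10 (-1.79, adjusted p = 0.0395) were called for TNFα, and Cxcl10 for anisomycin (-1.70, adjusted p = 0.0367), against 0.21, 0.238 and 0.241 without it. The untreated level was in Cy5 for the knock out and in Cy3 for the wild type, so a dye offset of a probe enters these differences. For Cxcl10 untreated knock out MEFs read 1.27 on average, and the direct difference between genotypes with TNFα was -0.52. Genotype cannot be told apart from cell line in any of these comparisons, and it overlaps with scan batch.

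**Figure D5:**
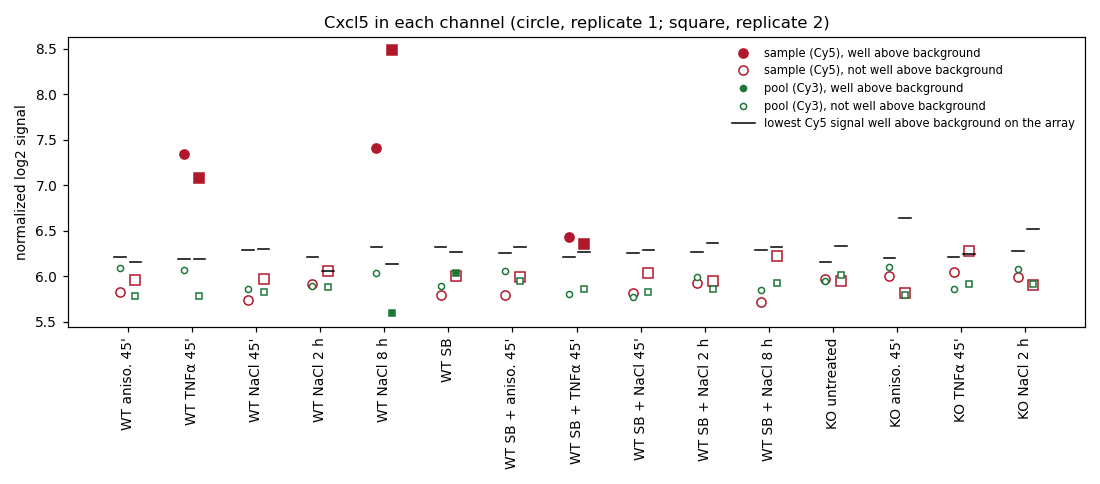
Normalised log2 signal of the Cxcl5 probe in Cy5 (the group) and Cy3 (the pool) on each array, with black ticks for the lowest Cy5 signal that counts as well above background on that array. Filled symbols were well above background by the scanner software, in Cy5 both arrays of TNFα, SB203580 with TNFα and NaCl for 8 h in wild type MEFs. A hollow Cy5 symbol of knock out MEFs with TNFα lies just above its tick.

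Cxcl12, the ligand of Cxcr4, moved little. Its probes read between -0.49 and 0.51 on the 22 wild type arrays, and no wild type group in which it was tested was called, with or without outlier spots, while normexp called it with NaCl for 8 h (0.30, adjusted p = 0.0395). In p38α knock out MEFs the probe for transcript variant NM_013655 read 0.53 to 1.00 on the 8 arrays and that for NM_021704 -0.01 to 0.57, so the probes agree in direction on 7 arrays and differ in size. With outlier spots left out Cxcl12 was called with anisomycin in p38α knock out MEFs (mean 0.52, 1.43-fold, adjusted p = 0.0174), a call lost without either array (adjusted p of 0.0811 and 0.207) and with only the compared arrays in the fit (adjusted p = 0.0573). With the replicate block it was also called with TNFα (0.35, adjusted p = 0.0224) and NaCl (0.36, adjusted p = 0.0119). With them kept it was higher than the pool in all 4 knock out groups, by 0.50 to 0.68 (adjusted p of 0.00226 to 0.0257). The direct difference from wild type MEFs was 0.57 with anisomycin (0.20 to 0.94, adjusted p = 0.166), and 0.0273 with the replicate block.

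Cxcl9 gave no level. Its signal was not well above background in either channel on any of the 30 arrays, and the deposited log2 ratio was 0.00 on all of them but 1 of knock out MEFs with anisomycin (-0.38).

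The replicate numbers moved with some of these values. Replicate 1 read higher than replicate 2 in 11 of 11 wild type groups for both Cxcl10 (median gap 0.60) and Cxcl3 (0.71), and in 8 of 11 for Cxcl1 and Cxcl2. The same held for Cxcl12, in 11 of 11 with the probe for NM_021704 (0.39) and 9 of 11 with that for NM_013655 (0.12). The pool signal of Cxcl10 was lower with replicate 1 in 11 of 11 groups (median 66.9 against 126), as was that of Cxcl3 (146 against 277). All first wild type arrays were 1 scan batch and all second ones another, and the part of this in the levels was not tested.

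Other genes of these pathways were taken from lists. With TNFα in wild type MEFs 5.25% of all genes were called higher and 5.72% lower, and with outlier spots kept 6.1% higher and 16.3% lower. Of 8 further CXC and CX3C chemokines on the array (such as Cxcl14, Cxcl16 and Cx3cl1), 7 were tested with TNFα and 0 were called higher or lower, with a median log2 ratio of 0.10 beside 0.00 over all genes; with outlier spots kept 1 was called lower. Of the 8 CXC receptors, 6 were tested with TNFα and Blr1 (Cxcr5, the Cxcl13 receptor) was higher, as it was in 12 of the 15 groups. The receptors of the members, Il8rb (Cxcr2), Cxcr3 and Cxcr4, were not called there.

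Of the 12 NF-κB subunits and feedback inhibitors, 4 were tested with TNFα and 2 rose, Nfkb1 and Tnfaip3, while with outlier spots kept 4 rose and 1 fell. Tnfaip3, which encodes the ubiquitin-editing inhibitor A20, read 5.69 and 4.98 with TNFα (mean 5.34), 4.98 and 4.48 after SB203580 (mean 4.73) and 4.59 and 4.28 in p38α knock out MEFs (mean 4.43). Nfkbiz, an inducible IκB family member, read 3.40 with TNFα on the 1 wild type array with a usable spot, and 3.40 and 3.43 with outlier spots kept. It read 2.91 and 2.81 after SB203580 and TNFα, and 2.72 and 3.39 in p38α knock out MEFs with TNFα.

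Of the 16 TNF receptor signalling genes 10 were tested with TNFα, and Birc2 was higher and Map3k7 lower, 1 of 10 each way, while with outlier spots kept 1 was higher and 5 lower. Of the 15 interferon pathway genes 9 were tested, and Ifnar2 was higher and Jak2 lower, counts near those shares of all genes, while with outlier spots kept 5 were higher and 1 lower. Of the 16 genes of the p38 pathway and of AU-rich mRNA decay 9 were tested, and Zfp36 and Zfp36l1 rose, while with outlier spots kept 4 rose and 1 fell. Zfp36 read 2.62 and 3.55 with TNFα (mean 3.09), 2.24 on both arrays after SB203580 and 1.78 and 2.41 in p38α knock out MEFs. Dusp1, a phosphatase that inactivates p38, read 3.51 and 3.34 with NaCl for 2 h (adjusted p = 6.5e-08, limma) and 2.79 and 2.89 for 8 h (adjusted p = 1.5e-07). On the 1 wild type array with a usable spot it read 4.66 with anisomycin and 1.39 with TNFα. After SB203580 and TNFα it read 1.84 and 1.97, and with TNFα in p38α knock out MEFs 1.40 and 1.89.

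The genes whose 15 group means most resembled those of a member were found by Pearson correlation among 1355 genes that spanned at least 2.5-fold, leaving out the member itself. For Cxcl10 these included Vcam1 (r = 0.97) and Sele (0.94), which encode endothelial adhesion molecules for leukocytes. For Cxcl1 they were Cxcl10 (0.96), Vcam1 (0.95) and the chemokine Ccl20 (0.94), and for Cxcl2 Ch25h (0.88), 9030221C07Rik (0.84) and Slc9a3 (0.83). Genes like Cxcl3 included 9130022E09 (0.90) and St3gal1 (0.83), and Cxcl12 was most like St6galnac3 (0.93), Gdf6 (0.89) and H2-Bl (0.89). For Cxcl5 none is given, as most of its group means are no level. The 15 means share 1 pool, and these values are a description.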

How the data were processed

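The authors hybridised RNA of each culture (Cy5) with a pool of 2 untreated wild type cultures (Cy3), without dye swap, and extracted spot intensities with Agilent Feature Extraction (version 9.1 in the submitters' processing notes, 8.1.1.1 per the file headers). The deposited log10 ratios of processed Cy5 to Cy3 had been normalised between the dyes by the software. The authors also deposited a table of normalised values on a log2 scale, used as an alternative, and raw intensities, used for normexp and for bounds. The fold is 2 to the power of the mean log2 ratio.

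Control spots and spots with an outlier mark were not used, and multiplication by 3.32 turned log10 into log2 ratios. Spots of a probe and probes of a gene were averaged. R 4.3.3 with limma 3.58.1 fitted 15 group means to 30 arrays (15 residual degrees of freedom) with empirical Bayes moderation, and all differences are contrasts of this model. The Benjamini-Hochberg adjustment ran over named genes measured on all arrays compared, and the fit was tested on simulated data. Python 3.11.15 was used for tables. Arrays give no read depth, so their number limits the precision.

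The members and gene lists were chosen with earlier results of these data known. Also named were Mapk14, up to 4 genes per list with an adjusted p under 0.05 and 2.5-fold in a wild type stress group, genes called in a list with TNFα, and for members with a level the 3 genes most like them, some of which are not reported here. Bounds use single channels after normexp (offset 50), loess and quantile scaling of the mean intensity. Whether replicate numbers pair arrays was checked by correlating the gap of replicate 1 over replicate 2, across genes, from group to group: r was 0.13 to 0.65 in 55 pairs of wild type groups, 0.15 to 0.45 in 6 pairs of knock out groups and -0.27 to 0.23 across genotypes. The pairing comes from these data within each genotype, and the blocked value is given beside a result whose call it changes. It coincides with scan batch in wild type MEFs. Alternatives were normexp, the deposited log2 table, outlier spots kept, only spots well above background, the brightest probe, centring, the replicate block, scan batch as a random block, fewer arrays, each array left out and a 2.5-fold threshold. Scan batch as a fixed block, Cxcl1 with outlier spots kept under the other alternatives, within-batch values and the motif GAAANNGAAA were added after seeing the data. Protein sequences were not analysed here.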

Additional observations from a re-analysis of the deposited data

Results flagged for a closer look

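Both values below are differences of inductions past the threshold, in which the rise of Cxcl5 differed with SB203580 or between genotypes. Cxcl5 rose less with NaCl for 8 h after SB203580 than without it, a difference of -3.99 on the log2 scale (adjusted p = 0.014, limma). The group with SB203580 alone that enters it served all stress times and cannot match each of them in time. The rise of Cxcl5 with TNFα was smaller in p38α knock out than in wild type MEFs, a difference of -3.31 (adjusted p = 0.0398). In both cases the lower side held no Cxcl5 signal well above background, so the size of the difference is not measured. The second call was lost with normexp (-0.99, adjusted p = 0.141) and the first was kept (-1.98, adjusted p = 0.0119). Each call was lost when certain single arrays were left out, as given beside it above.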

How the results depend on the processing

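Of 210 member results 37 were called, of which 7 were of Cxcl1 with outlier spots kept and 30 of the other members, counted below, and none changed direction under any alternative while called. Called group means numbered 19, and 33 with the replicate block, and 17 to 20 without single arrays. With normexp 6 of these calls were lost (Cxcl5 with SB203580 and TNFα, and Cxcl10 in 5 groups) and with only the compared arrays 4, all in p38α knock out MEFs. For the 3 stresses at 45 min 4 differences were called, 2 with spots well above background only, and 4 to 6 without single arrays. For the times of NaCl 2 were called, 4 with normexp, the replicate block or scan batch as a fixed block, 0 with the deposited log2 table or spots well above background, and 2 without any single array. For SB203580 against stress alone 1 was called, 0 with the log2 table or spots well above background, and 1 without any single array.

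For inductions with against without SB203580 1 was called, 2 with normexp, the log2 table or outlier spots kept, 3 with the fixed batch block, 6 with the replicate block, 7 at 2.5-fold and 0 with spots well above background. It was 0 without NaCl 8 h replicate 2, SB203580 replicate 1 or SB203580 with NaCl 8 h replicate 1, and 3 without SB203580 replicate 2. For p38α knock out against wild type MEFs 1 was called, 2 with normexp or at 2.5-fold, 3 with the fixed batch block, 5 with the replicate block, and 0 with fewer arrays, the log2 table or spots well above background; single arrays gave 0 to 1, with 0 without knock out TNFα replicate 1. For induction in the knock out 1 was called, 2 with the log2 table or outlier spots kept, 0 with fewer arrays, and 1 without any single array. For its difference from wild type induction 1 was called (Cxcl5), 2 with normexp (Cxcl2 and Cxcl3, with Cxcl5 lost), 4 with the replicate block or at 2.5-fold, and 0 with fewer arrays, the log2 table or spots well above background. It was 0 without wild type TNFα replicate 1 or 2, untreated knock out replicate 1 or knock out TNFα replicate 1, and 3 without untreated knock out replicate 2.

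Counts at 0 with the log2 table or with spots well above background come with fewer members tested, as Cxcl5 mostly has no value there. The offset of normexp draws ratios of dim probes towards 0, as for Cxcl10 with anisomycin (1.101 for 2.25) and Cxcl5 with NaCl for 8 h (2.14 for 4.98). Other causes were not tested. Where leaving out an array left 1 in its group, the spread of the other groups stood in for its own. Signal over background limits Cxcl5 and Cxcl9, and 2 arrays per group limit every test. The replicate block changed 30 calls with outlier spots left out, each of them to called and given beside the results above, and 1 of Cxcl1 with them kept (SB203580 with NaCl for 45 min, -0.39, adjusted p = 0.0439 against 0.0635). Blocked calls against the pool leave the shift between replicate numbers out of the spread.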
